A study of Glycine max with 42 samples.

Results

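The 100 genes described here were low in initial and control leaves of the soybean line T295H and were, among such genes, the most highly counted in sterile leaves of day 63. They were chosen from 37403 genes listed for that line of Glycine max. The rule first kept genes whose mean normalised count was under 20 in each of 3 groups, namely initial leaves of day 28, control leaves of day 35 and control leaves of day 63. It then took the 100 with the highest mean of log2(normalised count + 1) in the 3 sterile libraries of day 63. Of the 37403 genes, 8788 met the low limit, which left 8688 genes beside the 100. The values of those 4 groups chose the genes, so differences among them are a description and carry no test.

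A leaf is a source of sugars and amino acids, and flowers, pods and seeds are the sinks that take them up. When pods are removed or never form, soybean leaves are known to stay green longer and to store nitrogen and carbon in the blade, partly as vegetative storage proteins in the tissue around the veins. With pods filling, leaves export what they hold and then senesce.

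RNA came from trifoliate leaves, and the study set genetic against mechanical limitation of the seed sink. In line T295H the groups were sterile leaves of days 35 and 63 after planting, control leaves of the same days, and initial leaves of day 28 at R2, a flowering stage. In the cultivar Williams 82 they were depodded leaves labelled day 45, 54, 64 and 76, control leaves of the same days, and initial leaves of day 38 at R2. Each of the 14 groups held 3 libraries. The labels name neither the sterility gene of T295H nor the kind of plant behind its initial and control leaves, nor do they state whether a group's 3 libraries are different plants. The p-values therefore reflect the spread among the libraries at hand and nothing wider.

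Recovered library totals ran from 5471456 to 11877733 counts in T295H and from 6663477 to 13166094 in Williams 82. Nearly all counts were even, so depth is given in pairs of counts. The limit that 3 pairs set per library lay between 4.22 and 19.3 normalised counts in T295H and between 3.8 and 11.9 in Williams 82. T295H initial replicate 2 was the shallowest library, and its 10 most abundant genes held 41.3% of its counts. Leaving it out of the low means kept 93 of the 100 genes. Williams 82 initial replicate 2 and depodded day 45 replicate 2 stood apart for these genes, and sterile day 63 replicate 2 did so in T295H, as given beside the results.

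The working description of the 100 genes as expressed in sterile leaves alone did not hold in the values. None of them was without a count in all 9 libraries of the low groups. Of the 100, 4 had no count in initial leaves, 0 had none in control leaves of day 35, and 2 had none in control leaves of day 63. The highest of the 3 low group means was 15 at the median gene, at least 10 in 81 genes, and under 5 in 5. In Williams 82 many reached the limit in initial or control leaves, without any loss of pods, as described further on. They are therefore called the genes low in T295H initial and control leaves and higher in sterile leaves of day 63, or the 100 genes. Their median in those sterile leaves, 40.3 normalised counts, was below the 50.5 of all listed genes.

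**Figure D1:**
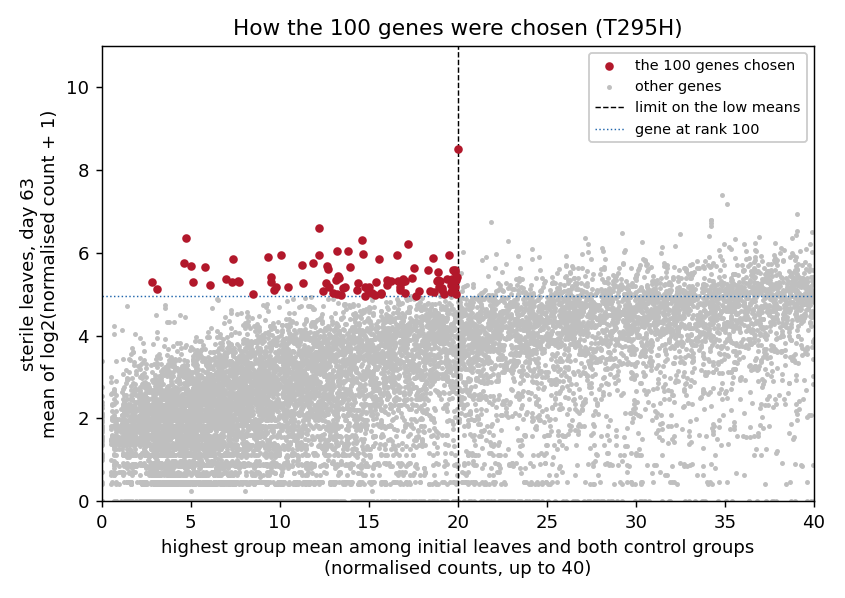
Each point is a gene of the T295H table: the horizontal axis gives the highest of its 3 low group means in normalised counts, up to 40, and the vertical axis its mean log2(normalised count + 1) in sterile leaves of day 63. The 100 genes chosen (red) lie left of the limit of 20 and above the gene at rank 100, most of them crowded near that corner, with other genes (grey) directly beyond both lines.

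In sterile leaves of day 63 the group means of the 100 genes ran from 30.3 to 377 normalised counts, with a median of 40.3. Only 3 reached 100 and 30 reached 50. Their medians in the groups the rule held low were 7.49 in control leaves of day 63, 12.7 in control leaves of day 35 and 10.4 in initial leaves. The mean of sterile leaves exceeded the highest low mean 1.67-fold to 19.5-fold, with a median of 2.63-fold. This ratio was at least 2 in 87 genes, at least 5 in 23 and at least 10 in 7. All 3 sterile libraries lay above all 3 control libraries of day 63 for 87 of the 100 genes, where 30.1% of the 29370 genes tested in T295H did so. They lay above all 9 libraries of the low groups for 70 genes, against 2.55% of genes tested. The rule used both contrasts, so nothing is read from these counts.

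The limits of the rule cut through a continuum. At rank 100, Glyma.04G151000 had a mean log2 value of 4.956, and at rank 101 Glyma.11G168800 had 4.951. On the low limit, Glyma.08G038400 was kept with a mean of 19.9974 in control leaves of day 35. Glyma.15G059600 was left out with a mean of 20.0092 in initial leaves, although its log2 value in sterile leaves was 4.962. Altogether 22049 genes were counted as highly in sterile leaves as the gene at rank 100 and were kept out by the low limit.

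The gene at rank 1, Glyma.08G038400, was also the one closest under that limit. Sterile leaves of day 63 gave 271, 535 and 325 normalised counts for it. Control leaves of day 63 gave 2.03, 1.68 and 3.51. Every sterile library was thus far above every control library of that day. At day 35 the order was the other way round, with 12.5, 3.79 and 7.31 in sterile leaves and 24.7, 17.5 and 17.8 in control leaves, and the groups did not overlap. Initial leaves gave 0, 0 and 4.3. The gene at rank 2, Glyma.04G198400, had 93.5, 184 and 50.6 in sterile leaves of day 63, against 16.2, 15.1 and 5.27 in control leaves. Replicate 2 raised its sterile mean to 109, which was 72.0 without that library. Values were not divided by transcript length, so the ranking orders counts and not transcripts. Neither deposited table pairs these IDs with a gene name, and no role is given to any of them here.

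Sterile replicate 2 of day 63 gave the highest value for 51 of the 100 genes, whereas it was highest for 33.6% of all genes tested. Summed over the 100 genes, the sterile libraries of day 63 held 4523, 6902 and 3811 normalised counts. Those of control leaves of day 63 held 881, 817 and 714. A single library moved the sterile mean of 19 genes by more than 1.5 times, replicate 2 for 17 of them and replicate 3 for the other 2. Over all genes, replicate 2 did so for 1.17% and replicate 3 for 1.45%. Ranking without replicate 2 kept 84 of the 100 genes. The part of this library in the levels of single genes was not tested further. The coefficient of variation among the 3 sterile libraries was 35.8% at the median gene and ran from 3.94% to 144%. Counting depth behind a gene in the 3 sterile libraries together was 59 to 721 pairs, with a median of 77.

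**Figure D2:**
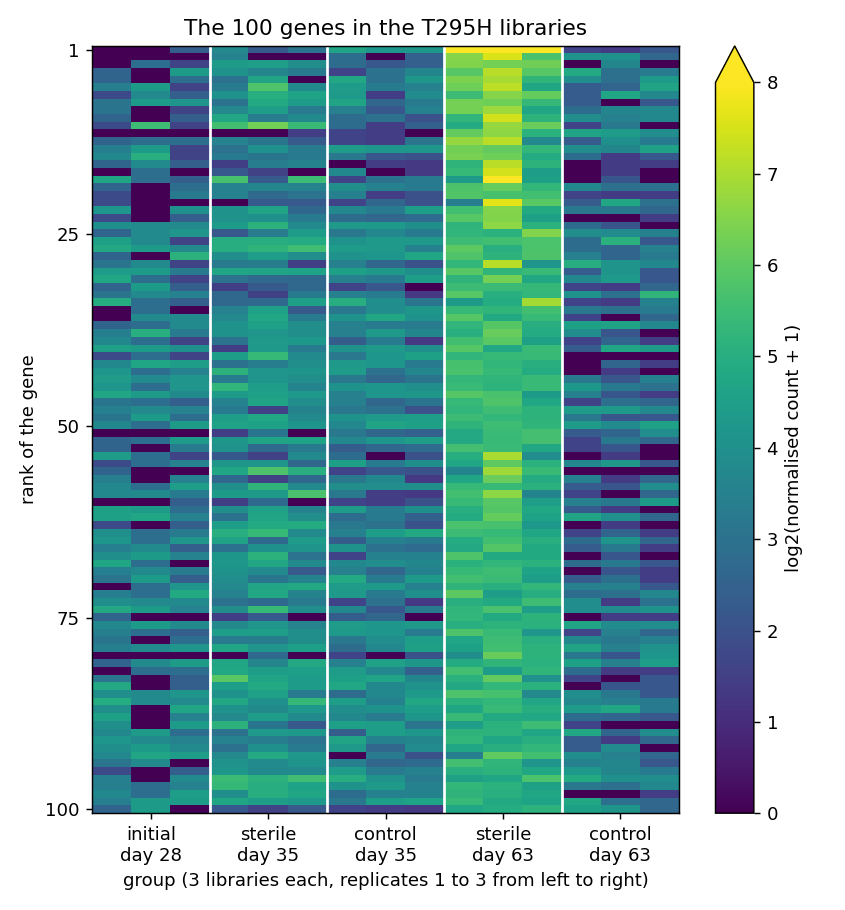
Rows are the 100 genes in order of the rule's ranking and columns the 15 T295H libraries, 3 per group, coloured by log2(normalised count + 1). The sterile columns of day 63 are bright because the rule chose them so, replicate 2 most of all, and dark cells (no count) are scattered through the other groups with no gene dark throughout.

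The sterile leaves of day 35 were not used by the rule, and there the levels lay nearer to those of control leaves. Group means ran from 0.609 to 55.4 normalised counts, with a median of 15.4 in sterile leaves and 12.7 in control leaves of day 35. In sterile leaves 32 of the 100 means reached 20, 8 reached 30 and 1 reached 50, while the rule kept every control mean under 20. The summed level was 1577, 1844 and 1456 in sterile leaves and 1225, 1055 and 1082 in control leaves, so these libraries did not overlap. By limma, 0 of the 99 genes that passed the filter on low values were past the threshold of an adjusted p under 0.05, against 0.177% of all genes tested. At an unadjusted p under 0.05 there were 12 (12.1%), near the 12.9% of all genes tested. EdgeR on recovered counts also called 0, with 15 (15.2%) at an unadjusted p under 0.05 beside 14% of all genes. DESeq2 called 4 (4.04%), all higher in sterile leaves, where it called 1.67% of all genes higher and 1.14% lower. The median log2 change over the 99 genes was 0.38, against 0.01 over all genes tested. All sterile libraries were above all control libraries for 22 genes and below them for 4, where the shares over all genes tested were 15% and 13.1%. Since the rule chose control leaves of day 35 to be low, these counts describe the genes and support nothing, and no p-value is given for a single gene at that day.

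The 2 genes with the highest sterile mean at day 35 differed in their controls. Glyma.05G045800 had 46.6, 77.7 and 42.1 normalised counts in sterile leaves, against 6.16, 1.75 and 4.45 in control leaves. The groups did not overlap. At day 63 it had 29.0, 106 and 71.7 in sterile leaves, against 2.03, 8.41 and 0 in control leaves. Glyma.20G177000 had 43.0, 34.1 and 45.7 in sterile leaves of day 35, against 30.8, 15.8 and 8.91 in control leaves. These groups did not overlap either, but the control libraries of this gene reached far closer to the sterile ones.

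Williams 82 offered libraries that the rule had not touched. Its table lists 99 of the 100 genes, all but Glyma.06G265700. Of these 99, 29 had a mean under 20 in the initial group and in all 4 control groups, a share of 29.3% beside 24.6% of all genes in that table. The other 70 reached 20 in at least 1 of those groups, and 14 reached 100. For the 14, no share of all genes was taken. Initial replicate 2 raised some initial means. Without it that of Glyma.08G038400 was 10.9 instead of 71.4, while that of Glyma.01G153300 was still 296. The 70 and the 14 were not counted again without this library. In control leaves alone, 45, 45, 29 and 19 of the 99 genes reached 20 at days 45, 54, 64 and 76. Between 62.3% and 64.1% of all genes did so. Among the 29 low genes, 14 reached 20 in a depodded group, while 10.6% of all genes under 20 in the same groups did so. Levels below 20 were not matched between these sets, so nothing is read from the difference. The rule capped the T295H means and not these, and each table had its own normalisation, so no comparison of levels is made between the lines.

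At the median of the 99 genes, depodded leaves had 20.5 normalised counts and control leaves 15.5 at day 45. The medians were 17.3 in depodded and 18 in control leaves at day 54, 21.9 in depodded and 10.6 in control leaves labelled day 64, and 23.0 in depodded and 7.83 in control leaves labelled day 76. Initial leaves had a median of 16.2. The median of depodded leaves therefore moved little over the 4 days, while that of control leaves was lowest on the last. At the label of day 76, 56 of the 99 genes had a mean of at least 20 in depodded leaves and 19 did in control leaves. Over all genes of the table these shares were 63.8% and 62.3%. A highest group mean in depodded leaves labelled day 64 or 76 was found for 36 genes, and in the initial group or at day 45 for another 36. For the 82 genes tested these shares were 34.1% and 39.0%, against 24.1% and 31.9% of all genes tested.

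Of the 99 genes, 82 had a mean of at least 10 over the 27 Williams 82 libraries and were tested. Genes low everywhere but in depodded leaves could pass this filter only through depodded leaves. Counts without it are therefore also given in the later comparisons by label. At day 45, limma called 0 of the 82 genes, against 0.0103% of all genes tested, with 11 (13.4%) at an unadjusted p under 0.05 beside 10.4% of all genes. EdgeR and DESeq2 also called 0, with 13 (15.9%) and 16 (19.5%) at an unadjusted p under 0.05 beside 10.5% and 11.9% of all genes. At day 54, limma called 0, against 0.88% of all genes tested, with 13 (15.9%) at an unadjusted p under 0.05 beside 15.3% of all genes. EdgeR called 0 there, with 14 (17.1%) at an unadjusted p under 0.05 beside 16.3%. DESeq2 called 2 (2.44%), both higher in depodded leaves, where it called 4.71% of all genes in either direction. They were Glyma.07G052600, described next, and Glyma.01G133600, which was named after its value was seen. In bulk leaves, fewer cells of a type and less RNA per cell cannot be told apart, here and in every comparison that follows.

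At the label of day 64, 26 of the 82 genes (31.7%) were higher in depodded than in control leaves, where 19.1% of all genes tested were. Lower in depodded leaves were 5 (6.1%), against 16.7% of all genes tested. Among the other genes that were under 20 in the same 3 T295H groups, 19.0% were higher and 6.6% lower, so the lower share was like theirs. The median log2 change was 0.92, against 0.01 over all genes tested and 0.36 over the other low genes, and it was 0.90 with Glyma.12G205700, which had no count in any control library of that day, set to its bound. Calls in either direction made up 37.8% of the 82 genes and 35.8% of all genes tested, so the genes differed from all genes in the direction of their calls more than in the number. Without the filter, 28 of 99 genes (28.3%) were higher and 5 (5.05%) lower, against 15.5% and 12.9% of all genes. Leaving out depodded replicate 1 left 17 genes (20.7%) higher and 5 (6.1%) lower, against 16.2% and 14% of all genes. Leaving out control replicate 1 left 18 (22%) and 4 (4.88%), against 14.9% and 12.3%. Without any other single library of the compared groups, 26.8% to 29.3% were higher, against 15.2% to 16.4%.

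Among the genes higher at that label, the largest change belonged to Glyma.07G089900. Its depodded libraries gave 378, 139 and 332 normalised counts. Its control libraries gave 5.77, 1.98 and 0. The lowest depodded value was thus far above the highest control value, and the log2 change was 6.58 (SE 0.93, adjusted p 1.4e-05). Leaving out control replicate 1 gave 7.24 and leaving out control replicate 3 gave 5.86. In T295H the same gene had 46.7, 98.0 and 11.2 in sterile leaves of day 63, a mean of 52.0 that was 29.0 without replicate 2. Glyma.07G052600 had 206, 137 and 114 in depodded leaves, against 0, 3.97 and 0 in control leaves, again with no overlap. Its log2 change was 6.45 (SE 1.04, adjusted p 5.99e-05), and 7.22 without control replicate 2. Only 2 pairs of counts stood behind the control value, and the ratio of means was 115, with counting error alone allowing 35.7 to 1080 at 95% confidence.

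The largest falls at that label were those of Glyma.05G227600 and Glyma.03G205400. Glyma.05G227600 had 1.84, 1.85 and 1.63 normalised counts in depodded leaves, against 30.8, 69.4 and 22.8 in control leaves. No depodded library came near the controls, whose mean of 41.0 was 26.8 without replicate 2. The log2 change was -3.76 (SE 0.83, adjusted p 0.00129), and with 3 pairs in depodded leaves the ratio of means was 0.0433 (95% interval from counting 0.00917 to 0.139). Glyma.03G205400 had 5.53, 7.41 and 0 in depodded leaves, against 32.7, 33.7 and 59.8 in control leaves, so the groups did not overlap. Its log2 change was -3.45 (SE 0.86, adjusted p 0.00341), and -2.48 without depodded replicate 3. This fall depended on which day the depodded libraries belong to, as given below.

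At the label of day 76, 33 of the 82 genes (40.2%) were higher in depodded leaves, against 24.2% of all genes tested and 18.1% of the other low genes. A single gene (1.22%) was lower, against 22.2% of all genes tested and 13.1% of the other low genes. The median log2 change was 1.32, against 0.05 over all genes tested and 0.25 over the other low genes. All depodded libraries were above all control libraries for 42 of the 82 genes and below them for 3, beside shares of 29.3% and 26.8% over all genes tested. Calls in either direction were fewer than among all genes, 41.5% against 46.3%. Without the filter, 34 of 99 genes (34.3%) were higher and 0 lower, against 20% and 18.4% of all genes, and 49 (49.5%) had an unadjusted p under 0.05 beside 46.7% of all genes. Leaving out control replicate 1 left 21 genes (25.6%) higher and 0 lower, against 19.8% and 17.8% of all genes. The 40 tested genes of ranks 1 to 50 gave 14 higher and those of ranks 51 to 100, 42 tested, gave 19.

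**Figure D3:**
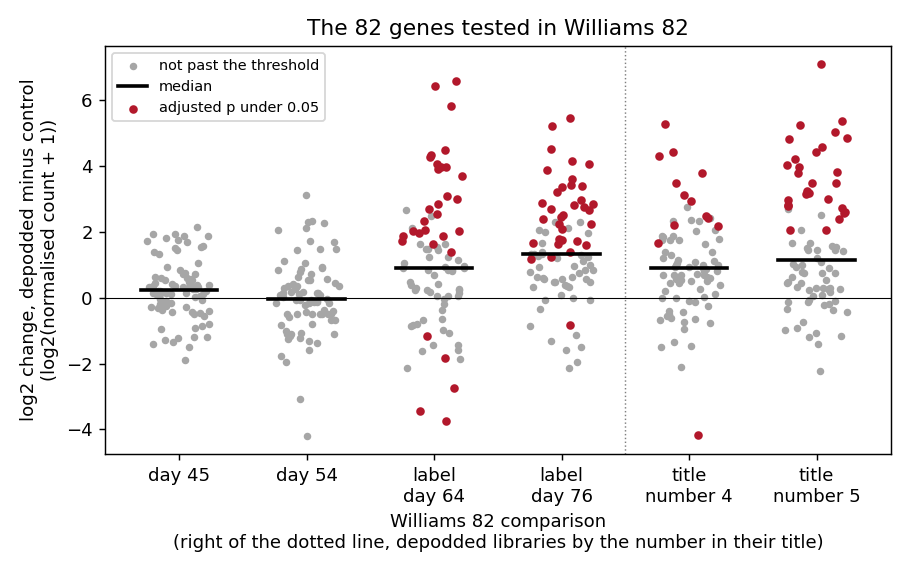
Each point is 1 of the 82 genes tested in Williams 82, with the log2 change of depodded minus control leaves on the vertical axis, red where the adjusted p from limma was under 0.05, and a bar at the median. The medians lie near 0 at days 45 and 54 (0.24 and -0.04) and at 0.92 and 1.32 at the labels of days 64 and 76, and right of the dotted line the depodded libraries are placed by the number in their title (0.90 and 1.16).

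Glyma.06G043000 and Glyma.03G026000 changed most at the label of day 76. Glyma.06G043000 had 110, 17.9 and 40.5 normalised counts in depodded leaves and no count in any of the 3 control libraries. Depodded leaves were at least 11.2-fold higher against the limit of 3 pairs per library, and at least 5.81-fold higher without depodded replicate 1. The log2 change was 5.47 (SE 1.18, adjusted p 0.000668), 4.81 without depodded replicate 1 and 6.08 without depodded replicate 2. In T295H this gene had 11.3, 115 and 40.8 in sterile leaves of day 63 and no count in control leaves of that day. Glyma.03G026000 had 60.8, 51.5 and 40.5 in depodded leaves, against 0, 1.6 and 0 in control leaves. Its 3 depodded libraries were close together and well above the controls, with a log2 change of 5.22 (SE 0.63, adjusted p 1.06e-06). With a single pair in control leaves, the ratio of means was 95.1 (95% interval from counting 16 to 3670). Its sterile mean of 56.4 in T295H at day 63 rested on replicate 2 and was 22.3 without it.

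The gene called lower at this label was Glyma.08G304400, with 23.0, 17.9 and 20.2 normalised counts in depodded leaves, against 32.9, 36.9 and 42.1 in control leaves. The groups did not overlap, but the difference was small (log2 change -0.84, SE 0.34, adjusted p 0.0476), and without any single library of the 6 the adjusted p was above 0.05. EdgeR gave an adjusted p of 0.0628 and limma with a replicate block 0.0565, and with libraries placed by title number the change was -0.08 (adjusted p 0.9), so this call held in few settings. The gene at rank 1 in T295H, Glyma.08G038400, had 9.85, 13.4 and 20.2 in depodded leaves, against 0, 1.61 and 0 in control leaves, a rise of 3.44 on the log2 scale (SE 1.17, adjusted p 0.0195). The gene at rank 2, Glyma.04G198400, did not pass the filter on low values. It had 1.64, 6.71 and 0 in depodded leaves and 0, 1.61 and 53.9 in control leaves, with 1 control library above all others.

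The days of the last depodded groups are in doubt. Titles number the samplings, and control leaves have number 4 at day 64 and number 5 at day 76. For depodded leaves these numbers are swapped, with 5 on the libraries labelled day 64 and 4 on the libraries labelled day 76. With depodded libraries placed by title number, 12 of the 82 genes (14.6%) were higher and 1 lower against controls of day 64, beside 7.08% higher and 5.93% lower over all genes tested. Against controls of day 76, 28 (34.1%) were higher and 0 lower, beside 15.8% and 12.5% over all genes tested, with 39 (47.6%) at an unadjusted p under 0.05 beside 38.8%. Among the 82 genes tested, the share that rose was thus above that of all genes under either placing. By title number no fit without the filter on low values was run. Genes that passed it only through depodded leaves could add to the share there. The smaller count was 4 (4.88%, against 3.39% of all genes) without control replicate 1 of day 64. It was 6 (7.32%, against 3.31%) without depodded replicate 1 of title number 4. At title number 5 the largest changes were those of Glyma.07G089900, at 7.09 on the log2 scale (SE 0.93, adjusted p 6.64e-06), and Glyma.07G149700, at 5.37 (SE 0.99, adjusted p 0.000266). Glyma.07G149700 had 308, 139 and 204 normalised counts in those depodded libraries, against 5.2, 19.3 and 0 in controls of day 76, with no overlap. At title number 4, Glyma.07G052600 (5.28, adjusted p 0.00213) and Glyma.09G063900 (4.44, adjusted p 0.000781) rose most, and Glyma.05G227600 fell by 4.17 (adjusted p 0.00246). With 2 pairs each in controls, the ratios of means were 49.6 (95% interval from counting 15.3 to 474) for Glyma.07G052600 and 38.6 (10.2 to 322) for Glyma.09G063900. Glyma.03G205400 gave 0.0061 with an adjusted p of 0.999 there, and Glyma.07G089900 gave 2.32 with an adjusted p of 0.0993.

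**Figure D4:**
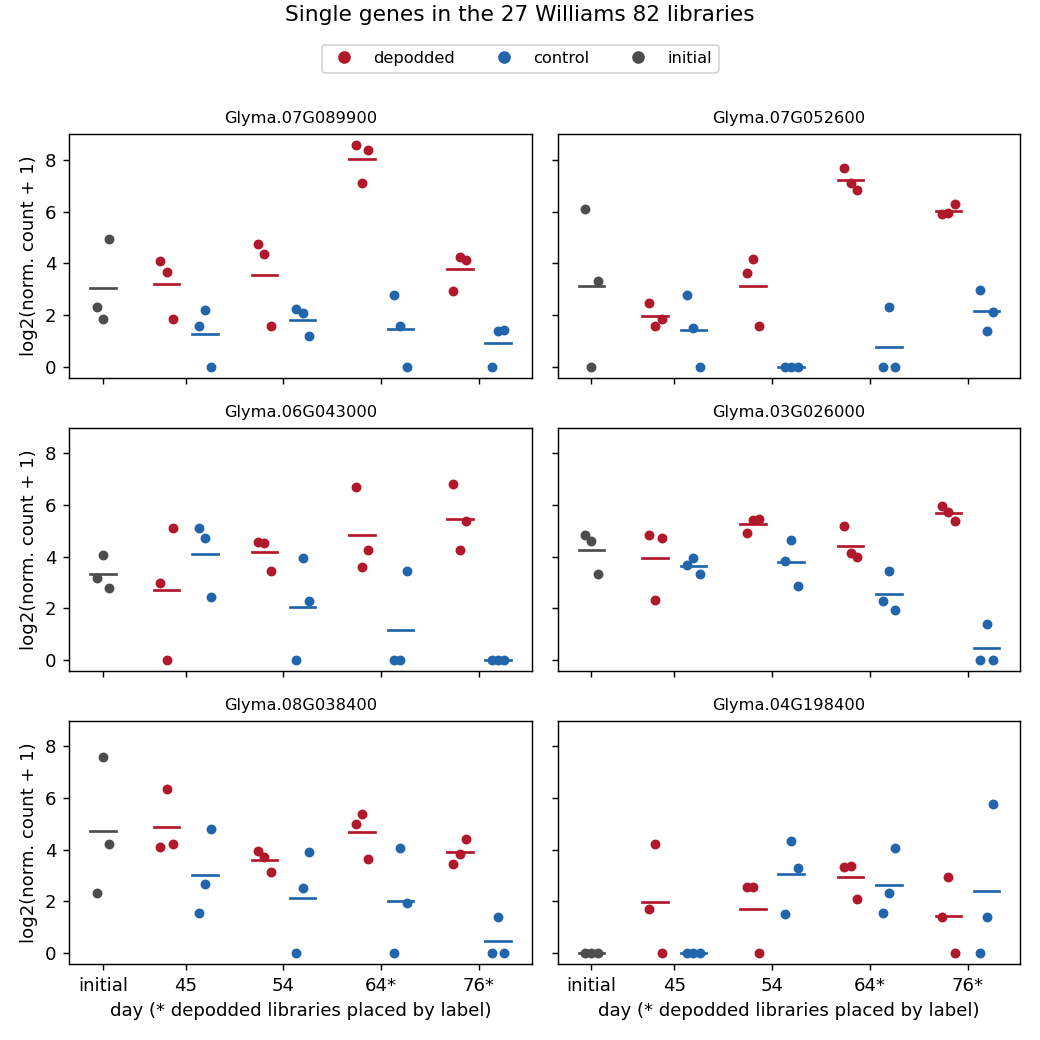
Points are single Williams 82 libraries and bars group means of log2(normalised count + 1), with depodded leaves (red) left of control leaves (blue) at each day, initial leaves (grey) first, and the depodded libraries of the last days placed by label. In the upper 4 panels depodded libraries labelled day 64 or 76 lie above their controls, the panel of Glyma.08G038400 shows an initial library (replicate 2) above all others, and that of Glyma.04G198400 shows 1 high control library of day 76.

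Whether the effect of depodding differed between days was tested as a difference of differences. Between the label of day 76 and day 45, the depodding effect was more positive at the later label for 16 of the 82 genes (19.5%), against 17.0% of all genes tested, and more negative for 0, against 15%. At an unadjusted p under 0.05 in either direction there were 27 (32.9%), fewer than the 42.4% of all genes. The share of more positive genes was therefore near that of all genes. EdgeR gave 14 (17.1%) more positive and 1 more negative, against 17.3% and 14.9% of all genes, and DESeq2 gave 19 (23.2%) and 1, against 18.3% and 18.1%. Without the filter, 17 of 99 genes (17.2%) were more positive and 0 more negative, against 13.3% and 11.7%. Glyma.06G043000 had the largest difference, 6.86 on the log2 scale (SE 1.67, adjusted p 0.0034). At day 45 it had 6.88, 0 and 33.3 normalised counts in depodded leaves and 33.5, 25.1 and 4.46 in control leaves, which overlapped. Its difference lay between 5.52, without depodded day 45 replicate 2, and 8.07, without depodded day 45 replicate 3, and it moved by more than 1.5 times in fold without depodded replicate 1 (6.20) or 2 (7.48) of the label of day 76 or control replicate 3 of day 45 (7.68). Glyma.03G026000 followed with 4.90 (SE 0.89, adjusted p 0.000309), and 4.08 without depodded day 45 replicate 2. By title number, 19 genes were more positive and 0 more negative, against 10.6% and 6.76% of all genes tested. Glyma.16G141000 had the largest difference there, 6.71 (SE 1.42, adjusted p 0.00262). EdgeR and DESeq2 were run with label days alone and did not call it (adjusted p 0.137 and 0.133). Its call held in 17 of 21 settings, and limma with label days lost it without control replicate 1 of day 76 (adjusted p 0.0524). That count of 19 was 11 (13.4%, against 8.79% of all genes) without depodded replicate 1 of title number 5. It was 12 (14.6%, against 8.96%) without control replicate 1 of day 45.

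Control leaves of day 76 were set against initial leaves of day 38 to follow the genes over time without depodding. This comparison shares its control libraries with that at the label of day 76. Levels were lower in control leaves for 26 of the 82 genes (31.7%), against 23.7% of all genes tested and 27.8% of the other low genes. Without initial replicate 2 this excess was gone, at 23.2% against 23.6% of all genes. They were higher for 3 (3.66%), against 20.1% of all genes tested and 6.86% of the other low genes. Without the filter, 27 of 99 genes (27.3%) were lower and 4 (4.04%) higher, against 21.7% and 17.2% of all genes. The median log2 change was -0.82, against 0.04 over all genes tested. Glyma.15G256400 had 0, 1.61 and 3.37 normalised counts in control leaves of day 76, against 39.7, 31.2 and 68.6 in initial leaves, with no overlap. Its log2 change was -4.32 (SE 0.63, adjusted p 7.49e-06), and with 3 pairs in control leaves the ratio of means was 0.0357 (95% interval from counting 0.00718 to 0.113). Glyma.08G038400 had 0, 1.61 and 0 in control leaves of day 76, against 3.97, 192 and 17.9 in initial leaves. Its log2 change of -4.26 (SE 1.17, adjusted p 0.00494) became -2.82 when initial replicate 2 was left out and -5.46 when replicate 1 was. Its initial mean of 71.4 was 10.9 without replicate 2, and with 1 pair in control leaves the ratio of means was 0.00749 (95% interval from counting 0.000167 to 0.0383). In a fit of these 2 groups alone its adjusted p was 0.0506.

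Of the genes that rose with age in control leaves, Glyma.19G225900 had 48.5, 27.3 and 15.2 normalised counts at day 76, against 0, 10.4 and 8.95 in initial leaves, with no overlap. Its log2 change was 2.55 (SE 0.72, adjusted p 0.00642), but 1.41 with an adjusted p of 0.0747 without initial replicate 1, and 3.17 without initial replicate 2. Glyma.17G155700 had 10.4, 22.5 and 6.74 in control leaves of day 76, against 3.97, 5.2 and 0 in initial leaves, which did not overlap. Its change of 2.02 (SE 0.58, adjusted p 0.00659) was 1.2 with an adjusted p of 0.0704 without initial replicate 3. With 3 pairs in initial leaves the ratio of means was 4.32 (95% interval from counting 1.32 to 22.5).

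Initial replicate 2 of Williams 82 was the highest initial library for 61 of the 99 genes, where it was highest for 37.1% of all genes tested. It moved the initial mean of 21 of the 99 genes by more than 1.5 times, against 6.53% of all genes. Without it, control leaves of day 76 were lower than initial leaves for 19 genes (23.2%), against 23.6% of all genes, and higher for 7 (8.54%), against 21.5%. A fit of those 2 groups alone called 14 (17.1%) lower, against 16.3% of all genes, and 0 higher, against 10.6%. In both of these fits the share of lower genes was close to that of all genes, while the share of higher genes was below it. Depodded day 45 replicate 2 likewise moved the mean of 18 of the 99 genes by more than 1.5 times, against 5.43% of all genes. Glyma.01G153300 shows both libraries plainly. It had 404, 9385 and 581 normalised counts in depodded leaves of day 45, against 1807, 684 and 2167 in control leaves of that day and 270, 12107 and 322 in initial leaves. Its initial mean of 4233 was 296 without replicate 2. With both libraries left out of the fit, 29 genes (35.4%) were higher and 5 (6.1%) lower at the label of day 64, against 21.1% and 19.2% of all genes, and 35 (42.7%) were higher and 3 (3.66%) lower at the label of day 76, against 26.1% and 24%.

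Depodded leaves labelled day 76 were also compared with the initial leaves of day 38, which sets levels after depodding beside those before it. Age and depodding differ together between these groups and cannot be told apart. This comparison shares libraries with both comparisons it stands beside. Higher in depodded leaves were 17 of the 82 genes (20.7%), close to the 20.2% of all genes tested, while 9.59% of the other low genes were higher. Lower were 6 (7.32%), against 21.6% of all genes tested and 24.8% of the other low genes, and the median log2 change was 0.21. Without the filter, 19 of 99 genes (19.2%) were higher and 6 (6.06%) lower, against 16.3% and 18.8% of all genes. Glyma.09G063900 had 64.0, 35.8 and 29.4 normalised counts in depodded leaves and no count in initial leaves, a level at least 4.51-fold higher. The log2 change from initial leaves was 5.38 (SE 0.78, adjusted p 1.25e-05). Glyma.16G141000, at rank 3 in T295H, had 23.0, 20.1 and 14.7 in depodded leaves and no count in initial leaves, at least 2.02-fold higher (log2 change 4.32, SE 1.01, adjusted p 0.00159). Every depodded library of both genes was above every initial library. Whether these 2 genes would pass the filter on low values without their depodded libraries was not tested.

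The largest falls against initial leaves rested partly on initial replicate 2. Glyma.01G153300 had 23.0, 17.9 and 40.5 normalised counts in depodded leaves labelled day 76, all below the initial values given above. Its log2 change was -5.26 (SE 1.13, adjusted p 0.000755), -3.48 without initial replicate 2, -6.22 without initial replicate 1 and -6.09 without initial replicate 3. Glyma.12G205700 had 0, 2.24 and 3.68 in depodded leaves, against 3.97, 211 and 26.8 in initial leaves, where the lowest initial library was barely above the highest depodded one. Its log2 change of -3.64 (SE 1.05, adjusted p 0.00778) was -2.25 with an adjusted p of 0.0759 without initial replicate 2, -4.96 without initial replicate 1 and -2.99 without depodded replicate 1. With 3 pairs in depodded leaves the ratio of means was 0.0245 (95% interval from counting 0.00406 to 0.0604). The 23 calls in all made up 28% of the 82 genes, against 41.8% of all genes tested. They became 15 (18.3%) without initial replicate 3 or depodded replicate 1, against 37.1% and 35.8% of all genes. Without depodded replicate 3 they were 13 (15.9%), against 37.3%. By title number, 19 genes were higher and 6 lower than in initial leaves, against 14.7% and 16.3% of all genes tested, and Glyma.16G141000 was at least 8.89-fold higher (log2 change 6.37, adjusted p 5.7e-05).

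The IDs of these genes carry a chromosome number by the naming convention of the soybean genome. By that number the 100 genes lay on all 20 chromosomes, with 2 to 9 on each, and 2 on unplaced scaffolds. The highest numbers were on chromosomes 8 and 15, with 9 each. Chromosome 15 contributed 0.51% of its listed genes and chromosome 9 the smallest share, 0.11%. Only 5 pairs of the genes stood within 1500 of each other in the running number of the ID, the closest being Glyma.15G068700 and Glyma.15G068900.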

How the data were processed

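The authors deposited 1 table per line with a signal per gene and library. Within a column every value is a multiple of the smallest step, as when counts are divided by a size factor. Counts recovered from it were whole to within 0.01 for 100% of values. Bowtie2 and DESeq2 appear, per the submitters' processing notes, without version or role, while build, annotation, counting tool and strand stay not given in the sources used here.

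Listed genes numbered 37403 in T295H and 38177 in Williams 82, and each table was normalised by itself. The numbered ending of T295H IDs was removed to match them. Groups came from the labels. A gene was tested where its mean over a whole table reached 10, which held for 29370 and 29208 genes. The test was limma 3.58.1 (lmFit, contrasts.fit, eBayes with a trend) in R 4.3.3, two-sided, on log2(normalised count + 1), with all groups of a table in 1 fit, Benjamini-Hochberg adjustment over all genes tested and a threshold of 0.05. Changes on this scale understate those of low genes. The fits were tested on simulated data. Alternatives were edgeR 4.0.16 (quasi-likelihood) and DESeq2 1.42.0 on recovered counts, other filters, limits and list sizes, title numbers and left-out libraries. On recovered counts, edgeR called 7363 of all genes higher and 6314 lower at the label of day 76, and limma 7060 and 6477.

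Of the recovered counts above 0 about 99% were even in every library, so floors (3 pairs per library) and exact Clopper-Pearson 95% intervals use pairs and cover counting error only.

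The members and lists were chosen with earlier results of these data known. None of the 39557 IDs matched the 59048 RefSeq genes of assembly Glycine_max_v4.0 (0 matches), so the gene lists, marker lists, promoters and proteins planned could not be applied. Genes are named by the rule for that case: the 2 highest ranked, the pair at each limit, the 2 highest at sterile day 35, and in each tested comparison up to 2 higher and 2 lower with the largest log2 change among those called with no overlap of libraries, also for title numbers. Without annotation, a named gene may share reads with a near-identical copy or with an overlapping or antisense gene.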

Additional observations from a re-analysis of the deposited data

Results flagged for a closer look

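The effect of depodding differed between the label of day 76 and day 45 for 16 of the 82 genes tested, all in the more positive direction at the later label, by a direct test of the difference in limma. The share was close to that of all genes tested (19.5% against 17.0%). The largest difference was that of Glyma.06G043000, at 6.86 on the log2 scale (SE 1.67, adjusted p 0.0034). It was more positive in each run that left out 1 library. Next was Glyma.03G026000 at 4.9 (SE 0.89, adjusted p 0.000309).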

How the results depend on the processing

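Counts of genes called in either direction stayed within 1.5 times under the other pseudocount, no filter, edgeR and, except at days 35 and 54, DESeq2. With a filter at a mean of 50, which left 14 genes in Williams 82, the counts were 4 at the label of day 64 (31 as reported), 5 at the label of day 76 (34), 8 for control leaves of day 76 against initial leaves (29), 3 for depodded leaves against initial leaves (23) and 1 for the difference between days (16). As shares of the 14 genes, these counts were 28.6%, 35.7%, 57.1%, 21.4% and 7.14%, against 42.6%, 53.2%, 47.7%, 46.9% and 39.2% of all genes. The 50 highest ranked genes, 40 of them tested, gave 16, 14, 16, 12 and 7 in the same order. Of all genes tested, 35.8%, 46.3%, 43.8%, 41.8% and 32% were called in these comparisons. A fit of the compared groups alone gave 14 for control leaves and 12 for depodded leaves against initial leaves. It gave 4 each at day 54 and at sterile day 35, where 0 were reported. Those shares were 17.1%, 14.6%, 4.88% and 4.04%, against 26.8%, 27.2%, 7.18% and 3.81% of all genes. DESeq2 gave 2 at day 54 and 4 at sterile day 35. A low limit of 10 gave 18 at the label of day 76 and 16 for control leaves against initial leaves, and a limit of 50 gave 1 at day 54, 37 for depodded leaves against initial leaves and 25 for the difference between days. These limits kept 19 and 5 of the 100 genes. How many genes of these lists were tested is not given here, so nothing is read from their counts. Title numbers gave 13 (15.9%, against 13% of all genes) at the label of day 64, and there the fall of Glyma.03G205400 became 0.0061 (adjusted p 0.999). For single genes, 27 of the alternatives ended a call and 1 turned the direction.

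With 1 or 2 libraries left out of the fit or the ranking, counts ran from 0 to 0 at day 45 and sterile day 35, from 0 to 2 at day 54, from 22 to 34 at the label of day 64, from 21 to 38 at the label of day 76, from 23 to 32 for control and from 13 to 24 for depodded leaves against initial leaves, and from 12 to 20 for the difference between days. By title number they ran from 5 to 14, from 24 to 31, from 21 to 26 and from 11 to 19 for the labels of days 64 and 76, the initial leaves and the difference. By label, the fits without libraries called 26.8% to 41.5% at day 64, against 27.2% to 40.3% of all genes. At day 76 they called 25.6% to 46.3%, against 37.6% to 50.2%. Control leaves against initial leaves gave 28% to 34.1%, against 37% to 46.6%. Depodded leaves against initial leaves gave 15.9% to 28%, against 33.7% to 42.7%. The difference gave 14.6% to 24.4%, against 25.9% to 31.4%. By title number the shares were 6.1% to 17.1%, 29.3% to 37.8%, 25.6% to 31.7% and 13.4% to 23.2% in the same order. All genes gave 5.72% to 11.8%, 20.9% to 26.8%, 24.8% to 31.5% and 12.4% to 18.4%. Ranking without sterile replicate 3 gave 1 at day 54. The runs by title number without a library, those without T295H initial replicate 2, and the fit without Williams 82 initial replicate 2 and depodded day 45 replicate 2 were chosen after seeing the data.

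With the replicate number as a block, counts were 0 at days 45 and 54 and at sterile day 35, 31 at the labels of days 64 and 76, 29 and 23 against initial leaves and 16 for the difference, and by title number 14, 28, 26 and 19. By label the shares from day 64 on were 37.8%, 37.8%, 35.4%, 28% and 19.5%. All genes gave 35.4%, 46.1%, 43.6%, 41.5% and 31.4%. By title number the shares were 17.1%, 34.1%, 31.7% and 23.2%, against 12.7%, 28.1%, 30.7% and 16.7% of all genes. The labels give the samples a shared number and no pairing. Libraries of the same number in compared groups correlated between -0.186 and 0.248. The highest value was that of replicate 3 at day 54, where the same number was also the best match. With 3 libraries per group these correlations cannot settle whether libraries were paired. Depth limits what can be read from single genes: 3 pairs in a library amount to 3.8 to 19.3 normalised counts, close to many of the control values.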
